A study of Mus musculus with 8 samples.

Results

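Neurexins, neuroligins and LRRTM proteins are cell adhesion proteins that organize synapses, and 9 genes of these 3 families were examined among the 19938 genes of a mouse microarray experiment. They comprise 2 neurexins (Nrxn2 and Nrxn3), 3 neuroligins (Nlgn1, Nlgn2 and Nlgn3) and 4 LRRTMs (Lrrtm1 to Lrrtm4), matched by exact gene symbol. Each had 1 probe set, the group of array probes summarised into 1 value. RNA came from layers II to IV of the neocortex at postnatal day 2, cut out of frozen tissue with a laser, and each of 8 pups gave 1 array. The 4 mutant pups carried Bcl11a flox/flox with Emx1 IRESCre/+, and the 4 control pups carried Bcl11a flox/+ with the same Cre. Cre driven from Emx1 acts in the lineage of cortical excitatory neurons and much of the glia, so the controls have lost 1 allele there, and cells of other origin, such as GABAergic interneurons, keep both alleles in either group. Bcl11a encodes a DNA-binding zinc finger protein made by cortical projection neurons. The comparison sets mutant against control layers.

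Neurexins sit on the presynaptic terminal and reach across the cleft to postsynaptic partners, among them the neuroligins and the LRRTMs. Neuroligin 1 is best known from excitatory synapses, neuroligin 2 from inhibitory synapses and neuroligin 3 from both, while LRRTM proteins act mainly at excitatory synapses. In the neocortex these proteins are made while neurons form their first contacts around birth, and alternative promoters and splicing of the neurexin genes produce many forms that an array probe set may not separate.

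Values are log2 expression as deposited, so a difference of 1 is a 2-fold change. Bcl11a itself read 8.56, 8.85, 8.37 and 8.75 in the mutants, against 10.59, 10.52, 10.34 and 10.34 in the controls, a log2 difference of -1.82 (SE 0.10, limma adjusted p = 4.90e-07). The groups did not overlap, and signal remained in the mutants. Its position relative to the deleted exons was not analysed here. Bcl6, the repressor named beside it in the series title, differed by -1.82 as well (SE 0.12, limma adjusted p = 1.65e-06). The 9 measured markers of excitatory projection neurons had mean levels above those of 64.3% (Emx1) to 99.3% (Neurod6) of all genes. Control 1 stood apart from the other arrays, with the lowest weight when arrays were weighted by their fit to the model (0.556, against 0.794 to 1.33), and each result on the 9 genes that rests on it is given with and without it.

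Of the 9 organizer genes, 1 rose, 0 fell and 8 did not pass an adjusted p of 0.05. Lrrtm1 was the gene that rose. Of all genes tested, 4.15% passed, 2.36% upward and 1.79% downward, and of the genes brighter than the median, 7.32% passed. With 1 call the count says nothing of the 9 genes as a group. By unadjusted p, 3 of the 9 lay under 0.05 (Lrrtm1, Nrxn3 and Lrrtm2), against 14.0% of all genes. The median log2 difference of the 9 genes was 0.08, beside 0.02 over all genes, and their median absolute difference was 0.14, beside 0.07. All 9 had a mean level above the median of all genes.

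**Figure D1:**
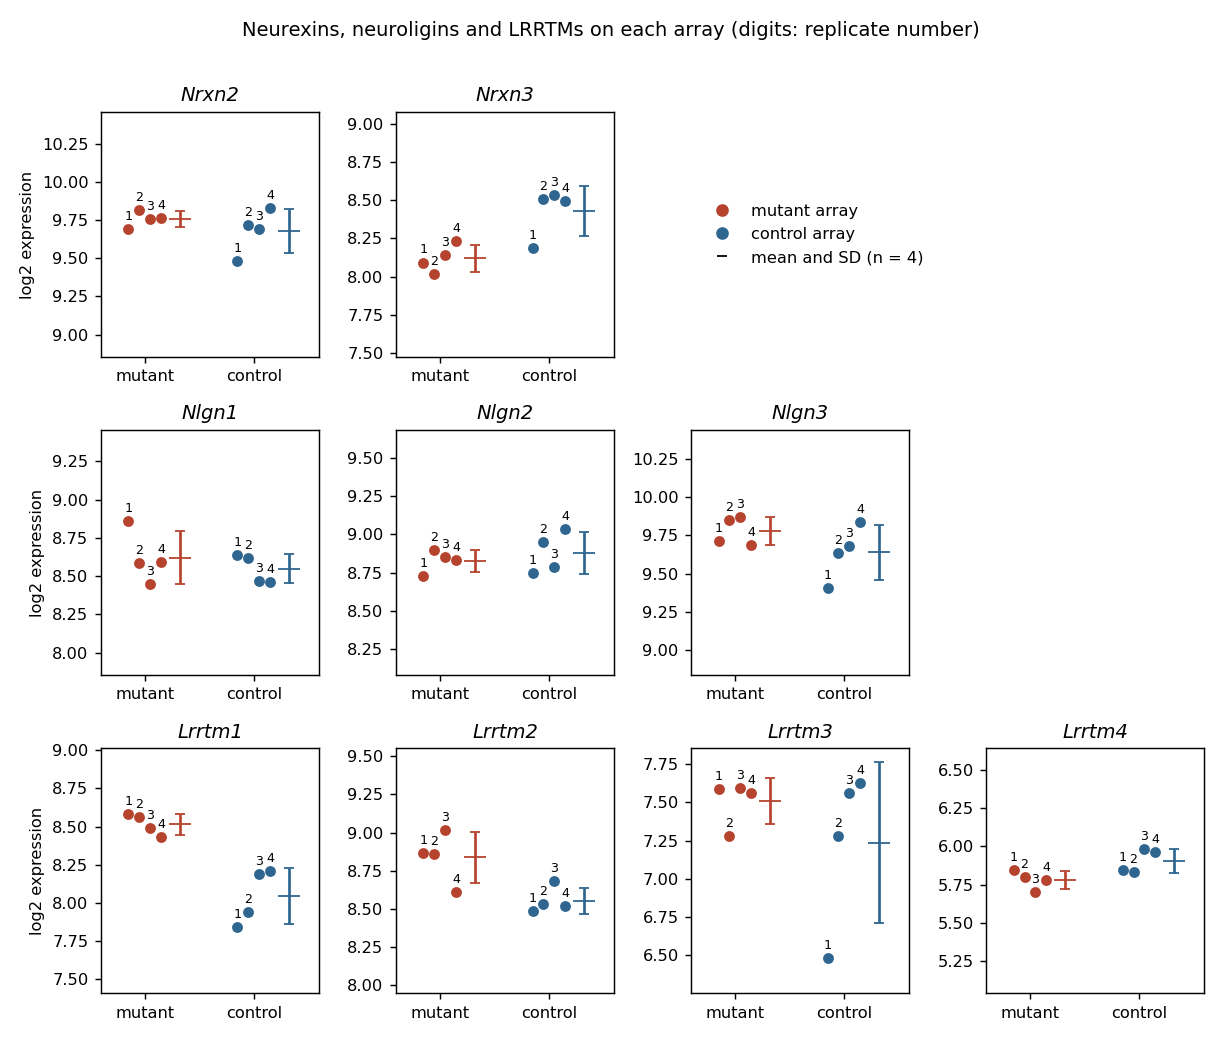
Log2 expression (vertical axes, each spanning the same range) of the 9 genes on the 4 mutant and 4 control arrays, 1 point per array with its replicate number, and bars for mean and SD (n = 4). Lrrtm1 is the gene whose 4 mutant arrays all lie above the 4 controls, and control 1 is the lowest control for 7 genes.

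Lrrtm1 encodes a postsynaptic leucine-rich repeat protein that binds neurexins and promotes excitatory synapse formation. It read 8.58, 8.56, 8.49 and 8.43 in the mutants, against 7.84, 7.94, 8.19 and 8.21 in the controls. The lowest mutant lay above the highest control, a separation shown upward by 5.46% of all genes and in either direction by 9.25%. Its mean was 8.51 ± 0.07 in mutants and 8.05 ± 0.18 in controls (SD, n = 4 each). This is a 1.38-fold increase with a 95% interval of 1.21 to 1.57 (log2 difference 0.47, SE 0.09, limma adjusted p = 0.00666). The exact two-sided permutation p was 0.0286, the smallest that 4 arrays against 4 can give. Without control 1 the log2 difference was 0.40 (limma adjusted p = 0.0120), and leaving out any 1 array kept the adjusted p at or below 0.0287. With each gene's own variance in place of the moderated one the call was lost (adjusted p = 0.104). Lrrtm1 lies inside the interval of Ctnna2, an alpha-catenin gene, in the gene table used for names. Ctnna2 read between 9.08 and 9.21 in mutants and between 9.03 and 9.07 in controls, a log2 difference of 0.08 that did not pass (limma adjusted p = 0.644).

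The promoter window of Lrrtm1 is shown because this is the gene that passed, with that of Lrrtm3 for comparison, since it holds the hexamer TGACCA, which BCL11A is known to bind in human erythroid cells. The windows are RefSeq sequences of build GRCm38.p6, 250 bases before to 50 after the annotated start, 5′ to 3′ on the gene's strand, at chr6:77242227-77242526 (plus strand) for Lrrtm1 and chr10:64090206-64090505 (minus strand) for Lrrtm3. Capitals mark the hexamer.
Lrrtm1: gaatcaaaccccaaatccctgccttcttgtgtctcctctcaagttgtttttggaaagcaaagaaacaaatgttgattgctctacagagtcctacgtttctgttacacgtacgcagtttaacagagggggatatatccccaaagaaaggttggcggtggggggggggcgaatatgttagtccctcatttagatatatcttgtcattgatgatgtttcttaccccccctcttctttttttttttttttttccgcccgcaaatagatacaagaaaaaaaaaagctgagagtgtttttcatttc
Lrrtm3: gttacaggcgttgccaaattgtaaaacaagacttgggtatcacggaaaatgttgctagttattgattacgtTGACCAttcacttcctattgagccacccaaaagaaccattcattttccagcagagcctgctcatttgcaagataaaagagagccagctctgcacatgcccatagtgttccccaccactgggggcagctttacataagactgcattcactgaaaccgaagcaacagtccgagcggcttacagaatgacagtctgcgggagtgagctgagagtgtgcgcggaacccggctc
Windows were at hand for 6 of the 9 genes, 10 windows in all, and Nrxn2, Nlgn3 and Lrrtm2 were not looked at. TGACCA, searched on both strands, was present in 1 of the 10 windows, at bases 72 to 77 of the Lrrtm3 window, and in 13.6% of 32851 promoter windows of the same length. TTCCNNGAA, a form of the core of sites bound by BCL6 and STAT proteins, was in 0 of the 10 windows and in 4.81% of all. Other forms of that core were not looked at. The letters of either motif are thus not in the Lrrtm1 window. GC content was 40.67% in the Lrrtm1 window, the lowest of the 10, and reached 68.67% in that of Nlgn2, with a median of 52.67% over all windows.

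The other LRRTM genes did not pass. Lrrtm2, whose protein also binds neurexins and helps to hold AMPA receptors at excitatory synapses, read 8.87, 8.86, 9.01 and 8.61 in mutants, against 8.49, 8.53, 8.68 and 8.52 in controls. Mutant 4 lay within the control range and the other mutants above it. The log2 difference was 0.28 (SE 0.09, 95% interval 0.10 to 0.47, limma adjusted p = 0.0977, exact permutation p = 0.0571). Without mutant 4 it was 0.36 and passed (limma adjusted p = 0.0243), and without control 1 it was 0.26 (limma adjusted p = 0.177).

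Lrrtm3 read 7.59, 7.28, 7.59 and 7.56 in mutants, against 6.48, 7.28, 7.56 and 7.63 in controls. Control 1 was far below every other array, and the remaining arrays of both groups covered the same range. The log2 difference of 0.27 (SE 0.19, limma adjusted p = 0.628) was 0.02 without control 1, with a 95% interval of -0.20 to 0.23. Its neurexin-binding protein is made by a gene inside the interval of Ctnna3, an alpha-catenin gene that differed by -0.01 on the log2 scale (limma adjusted p = 0.979), while Ctnna1, which contains Lrrtm2, differed by 0.03 (limma adjusted p = 0.927) and by -0.01 after quantile normalization or median centring.

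Lrrtm4, whose protein binds the heparan sulfate chains of glypicans and neurexins, was the LRRTM gene with a difference below 0. It read 5.84, 5.80, 5.70 and 5.78 in mutants, against 5.85, 5.83, 5.98 and 5.96 in controls. The groups overlapped by a small margin, with every mutant under the control mean. The log2 difference was -0.12 (SE 0.07, 95% interval -0.27 to 0.02, limma adjusted p = 0.445).

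**Figure D2:**
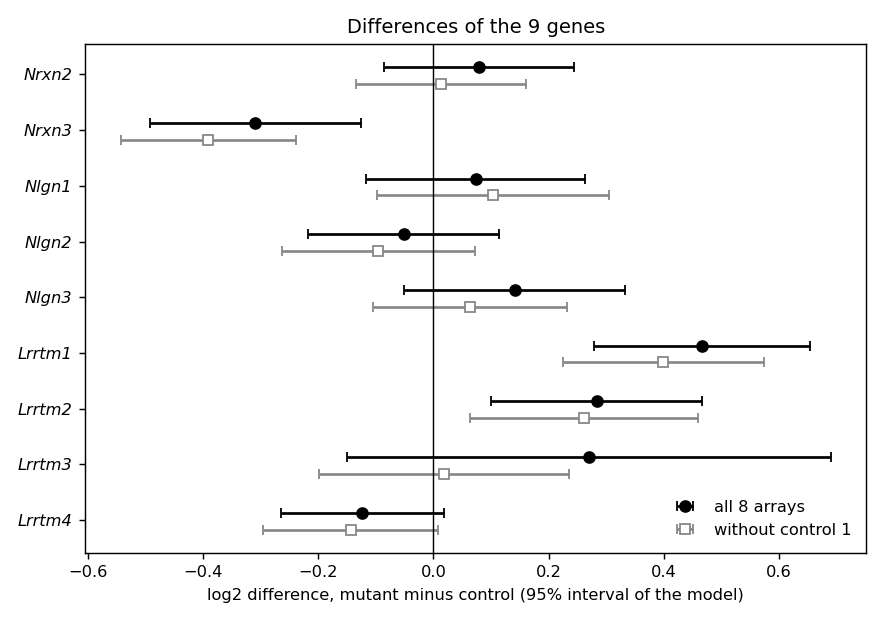
Log2 difference, mutant minus control (horizontal axis), of the 9 genes with the model's 95% interval, from all 8 arrays (filled circles) and without control 1 (open squares). Leaving out control 1 shifts Lrrtm3 to 0.02 from 0.27 and Nrxn3 to -0.39 from -0.31, and moves Lrrtm1 little.

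Among the neurexins, Nrxn3 was the member closest to passing. It read 8.09, 8.02, 8.14 and 8.23 in mutants, against 8.19, 8.51, 8.53 and 8.49 in controls. Control 1 lay among the mutants, and the other controls were above all mutants. The mean was 8.12 ± 0.09 in mutants and 8.43 ± 0.16 in controls (SD, n = 4 each), a log2 difference of -0.31 (SE 0.08, 95% interval -0.49 to -0.13). It did not pass (limma adjusted p = 0.0638, exact two-sided permutation p = 0.0571). Without control 1 the difference was -0.39 and passed (limma adjusted p = 0.00546), and the adjusted p lay between 0.0718 and 0.197 when any other array was left out. Of the other settings, 6 put it under the threshold, with adjusted p from 0.0167 to 0.0472. The rest did not, with adjusted p of 0.0520 without the dimmest 30% of genes and 0.0636 with the mean of the probe sets. It was 0.0860 with the Xist level as a covariate and 0.239 with each gene's own variance.

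Nrxn2 read 9.69, 9.82, 9.76 and 9.77 in mutants, against 9.48, 9.72, 9.69 and 9.83 in controls. All 4 mutants lay within the control range, whose low end was control 1. The log2 difference was 0.08 (SE 0.08, limma adjusted p = 0.750), and 0.01 without control 1, with a 95% interval of -0.13 to 0.16.

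Markers of other cell types were read on the same arrays. Of 17 measured markers of GABAergic interneurons, which lie outside the Emx1 lineage, 0 rose, 3 fell (Npy, Reln and Dlx1) and 14 did not pass, and 15 had differences below 0. Calb2 and Dlx6 had differences above 0. Calb2 read 7.23 to 7.61 in mutants and 5.38 to 7.06 in controls, without overlap. It differed by 0.86 but did not pass (limma adjusted p = 0.122). The log2 levels of the 17 markers summed to between 118.3 and 119.7 in mutants and between 120.5 and 124.3 in controls, so the groups did not overlap. The gap between these sums was smaller than the difference of Npy alone (-1.63), so they do not show a separation without Npy. The median log2 difference of the list was -0.20. The markers of excitatory projection neurons, 9 measured, had 1 that rose (Neurod6) and 2 that fell (Slc17a6 and Emx1). Their summed levels ran from 77.5 to 78.1 in mutants and from 74.3 to 78.8 in controls, where the lowest sum was that of control 1. Reln did not pass when mutant 2, mutant 3, control 2, control 3 or control 4 was left out, nor Emx1 without control 4, mutant 2, mutant 3 or mutant 4. Of 8 markers of Cajal-Retzius and subplate cells, 0 rose and 2 fell, Reln and Nr4a2. Nr4a2, an orphan nuclear receptor gene, read 4.77, 4.82, 4.66 and 4.47 in mutants, against 5.85, 8.15, 6.43 and 6.92 in controls, the largest difference of any marker measured (-2.15, limma adjusted p = 0.00212, and 0.0705 with intensity trend and robust variances). The controls were spread widely and all lay above the mutants. The summed levels of this list ran from 39.5 to 40.6 in mutants and from 42.1 to 43.9 in controls. That gap was smaller than the difference of Nr4a2 alone. The median log2 difference of the list was -0.0056, with 4 genes above 0 and 4 below, so the sums do not show a fall of the whole list. Of 12 markers of astrocytes and radial glia, Vim fell by 0.36 (limma adjusted p = 0.0225, lost without mutant 2, mutant 4, control 2 or control 3) and 11 did not pass, with sums of 86.0 to 88.2 in mutants and 87.1 to 89.5 in controls. No marker of oligodendrocytes (8 measured), microglia (9), vessels and meninges (12) or progenitors and dividing cells (7) passed. Over all marker lists, with that of synaptic vesicles given below, 9.89% of 91 genes passed. This stands beside 4.15% of all genes and 7.32% of the genes brighter than the median. No marker reads 0 on these arrays, since the lowest value of any probe set is 2.03. The part of cell composition in the differences of Lrrtm1, Lrrtm2 and Nrxn3 was not tested, and in bulk tissue fewer cells of a type and less RNA per cell cannot be told apart.

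The neuroligins did not pass and their differences were small. Nlgn1 read 8.86, 8.59, 8.45 and 8.59 in mutants, against 8.64, 8.62, 8.47 and 8.46 in controls. Mutant 1 was the highest array, and the sign of the difference rested on it: the log2 difference was 0.07 with all arrays (SE 0.09, limma adjusted p = 0.810) and -0.0068 without mutant 1.

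Nlgn2, the neuroligin of inhibitory synapses, read 8.73, 8.90, 8.85 and 8.83 in mutants, against 8.75, 8.95, 8.79 and 9.03 in controls. Of the 4 mutants, 3 lay within the control range and mutant 1 just below it. The log2 difference was -0.05 (SE 0.08, limma adjusted p = 0.862), and its 95% interval of -0.22 to 0.11 corresponds to 0.860-fold to 1.08-fold. Without control 1 it was -0.10.

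Nlgn3, an X-linked gene, read 9.71, 9.85, 9.87 and 9.69 in mutants, against 9.41, 9.63, 9.68 and 9.84 in controls. All mutants were above the control mean, and mutants 1 and 4 lay below control 4. The log2 difference was 0.14 (SE 0.09, 95% interval -0.05 to 0.33, limma adjusted p = 0.552), and it was 0.13 with the level of Xist, a transcript of the inactive X chromosome, as a covariate. Without control 1 it was 0.06.

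**Figure D3:**
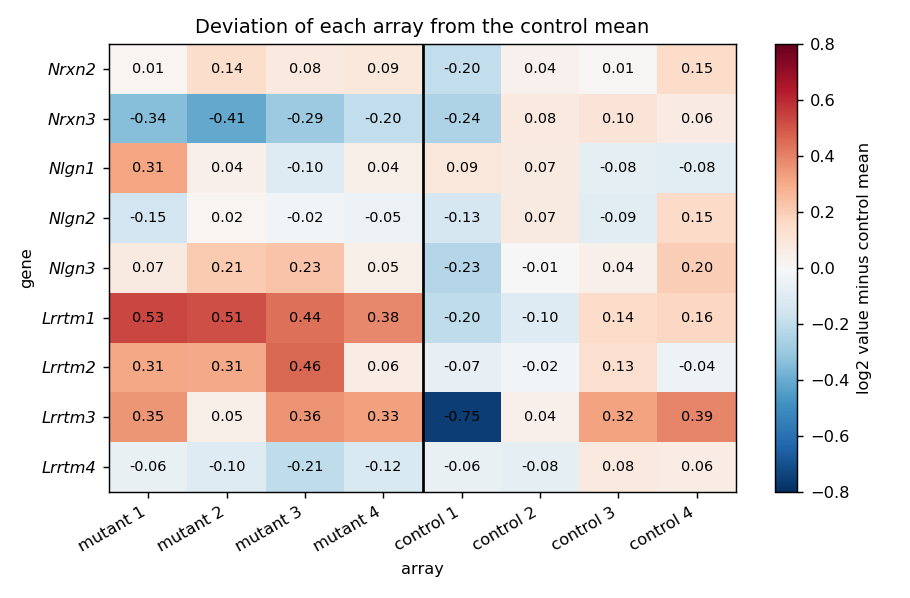
Log2 value of each array minus the mean of the 4 controls, for the 9 genes (rows) on the 4 mutant and 4 control arrays (columns), printed in each cell and shown by colour from -0.8 to 0.8. The Lrrtm1 row is positive in all 4 mutants, and the control 1 column holds the lowest value of the map, -0.75 for Lrrtm3.

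Control 1 was the lowest control for 7 of the 9 genes, the exceptions being Nlgn1 and Lrrtm4. Over all genes it was the lowest control for 27.0%, and over the 4985 brightest genes for 36.3%. The low sum of excitatory neuron markers on that array is given above, and its part in these values was not tested. Those markers did not all go the same way. Neurod1, Tbr1, Slc17a7, Slc17a6, Camk2a and Bcl11b read lowest on control 1 among the controls. Emx1 and Neurod6 read highest there, and Neurod2 lay between.

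Whether members of a family changed unequally was asked with within-array differences, in which a shift common to both genes of an array cancels. Of 10 pairs within families, 3 had mutant and control arrays that did not overlap: Nrxn3 with Nrxn2, Lrrtm1 with Lrrtm4 and Lrrtm2 with Lrrtm4. The LRRTM pairs share Lrrtm4, and Lrrtm1 alone already separated the groups, so these are not separate results. Of single genes 9.25% separated the groups, and the share among gene pairs was not computed. The value of Lrrtm1 minus Lrrtm4 was 2.74, 2.76, 2.79 and 2.65 in mutants, against 2.0, 2.11, 2.21 and 2.25 in controls, so the changes of the 2 genes differed by 0.59 (SE 0.06). Nrxn3 minus Nrxn2 was -1.60, -1.80, -1.62 and -1.53 in mutants, against -1.30, -1.21, -1.16 and -1.33 in controls, a difference of -0.39 (SE 0.07). Here control 1 lay inside the range of the other controls. Lrrtm2 minus Lrrtm4 averaged 3.06 ± 0.20 in mutants and 2.65 ± 0.07 in controls (SD, n = 4 each), a difference of 0.41 (SE 0.11). Each of these had an exact two-sided permutation p of 0.0286, the smallest possible, and an adjusted p over the 10 pairs of 0.0952, so 0 of the 10 pairs passed after adjustment. With that smallest p, a pair could pass only if most of the 10 reached it, so the count after adjustment decides little. Lrrtm1 and Lrrtm2 did not differ in their change by this test (0.18, SE 0.10, exact permutation p = 0.143), which does not show that they changed alike. In the neuroligin family the changes of Nlgn2 and Nlgn3 differed by -0.19 (SE 0.07, exact permutation p = 0.0571).

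**Figure D4:**
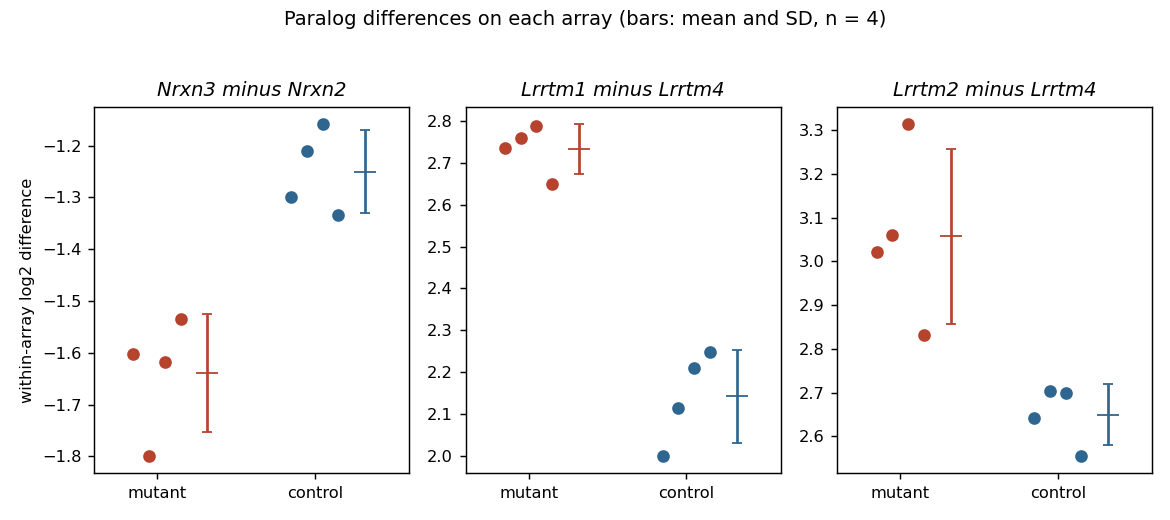
Within-array log2 difference (vertical axes, own scale in each panel) of 3 pairs of related genes on 4 mutant and 4 control arrays, 1 point per array, with bars for mean and SD (n = 4). In each panel the 4 mutants and 4 controls do not overlap, with Lrrtm1 minus Lrrtm4 the higher in mutants and Nrxn3 minus Nrxn2 the lower.

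The genes whose profiles over the 8 arrays were most like that of Lrrtm1 were Zfp882, which encodes a zinc finger protein, and Lrrc3b, which encodes a leucine-rich repeat protein. Likeness was the root mean square distance between profiles centred on their means, over 8 arrays and 9680 named genes brighter than the median. The distance was 0.05 for Zfp882 and 0.06 for Lrrc3b, with a median of 0.27 over the genes searched. Zfp882 differed by 0.47 and Lrrc3b by 0.47 on the log2 scale, and Lrrc3b read 6.52, 6.27, 6.39 and 6.29 in mutants, against 5.66, 5.82, 6.05 and 6.06 in controls. Both were picked by likeness on these same arrays, so differences near that of Lrrtm1 follow from the choice.

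Partners of the 3 families were examined from lists that were not picked by how their genes moved, although earlier results of these data were known. They held 74 genes with a value, of which 4 rose, 7 fell and 63 did not pass. Their median log2 difference was -0.03. That is 14.9% called, beside 4.15% of all genes and 7.32% of the genes brighter than the median, a level that 61 of the 74 exceeded. Without mutant 2, control 2 or control 3, 4 fell. With 30 genes of other organizer families and the 3 alpha-catenin genes the lists came to 107, of which 9 rose and 11 fell (18.7%). Of the 107, between 4 and 6 fell without control 2, control 3, control 4, mutant 2, mutant 3 or mutant 4.

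Both neuroligin inhibitors fell. MDGA proteins bind neuroligins and block their contact with neurexins. Mdga1 read 8.26, 8.41, 8.27 and 8.12 in mutants, against 9.66, 9.33, 9.20 and 9.14 in controls, a 2.09-fold drop (limma adjusted p = 6.04e-05). Mdga2 read 8.06, 7.90, 7.99 and 7.67 in mutants, against 8.25, 8.36, 8.45 and 8.10 in controls, a 1.30-fold drop (limma adjusted p = 0.0417). The groups did not overlap for either gene, though by a small margin for Mdga2, which lost its call without control 1, control 2, control 3, mutant 2, mutant 3 or mutant 4 (adjusted p up to 0.126) and with the Xist level as a covariate (0.0949).

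Of 20 other neurexin ligands, 1 rose, 3 fell and 16 did not pass, with a median log2 difference of -0.01. C1ql3, a secreted C1q-like protein that binds neurexin 3, rose: it read 6.43, 6.58, 6.42 and 6.38 in mutants, against 5.23, 5.45, 5.79 and 5.61 in controls, a 1.91-fold increase (limma adjusted p = 1.27e-04). Tafa2, a small secreted protein of a family that joins neurexins on their way to the surface, fell 1.73-fold, with 9.42 ± 0.09 in mutants and 10.21 ± 0.09 in controls (SD, n = 4 each, limma adjusted p = 2.29e-05). Cbln1, a cerebellin that links neurexins to delta glutamate receptors, fell 1.42-fold (limma adjusted p = 0.00229). Nxph1, a neurexophilin that binds alpha-neurexins, fell 1.24-fold (limma adjusted p = 0.0323). Nxph1 passed when control 1 was left out but not when any other single array was (adjusted p up to 0.108). With the mean of its probe sets its log2 difference was -0.18 (adjusted p = 0.187). On the same arrays 15 of the 17 interneuron markers had differences below 0, and their part in the fall of Nxph1 was not tested.

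Inside the presynaptic terminal, neurexins bind the adaptor CASK and its Mint and Veli partners. There were 15 presynaptic adaptor genes, with 1 call in each direction and 13 not passing. Apba1, the gene of Mint1, fell: it read 8.52, 8.47, 8.60 and 8.63 in mutants, against 9.13, 9.25, 9.19 and 9.26 in controls, a 1.57-fold drop (limma adjusted p = 6.04e-05). Ppfia2, a liprin-alpha that binds LAR-type phosphatases, rose 1.32-fold (limma adjusted p = 0.00846). Of 5 splicing regulators, including the KHDRBS proteins that act on a neurexin splice site that affects LRRTM binding, 0 passed. Khdrbs2 and Khdrbs3 had the smallest p, with log2 differences of 0.21 and -0.17 (limma adjusted p = 0.145 and 0.377).

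On the postsynaptic side, 18 scaffold genes were measured, of which Magi1 rose, Shank2 fell and 16 did not pass. Magi1 rose 1.68-fold, with 8.20 ± 0.08 in mutants and 7.45 ± 0.25 in controls (SD, n = 4 each, limma adjusted p = 9.19e-04). Shank2 fell 1.22-fold (limma adjusted p = 0.0243), a call lost without control 2, control 3, control 4, mutant 2, mutant 3 or mutant 4 (adjusted p up to 0.0896), while averaging its probe sets gave a log2 difference of -0.16 (adjusted p = 0.282). The scaffolds best known from neuroligin binding, PSD-95 at excitatory and gephyrin at inhibitory synapses, did not pass: Dlg4 differed by -0.08 and Gphn by -0.13 on the log2 scale (limma adjusted p = 0.643 and 0.428). Of 13 markers of synaptic vesicles and terminals, 0 rose, 2 fell (Snap25 and Slc17a6) and 11 did not pass.

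Of 10 glypican and syndecan genes, which carry the heparan sulfate bound by LRRTM4, Gpc6 rose 1.63-fold (limma adjusted p = 0.00819), 0 fell and 9 did not pass. Of 4 genes for the shedding and transport of neuroligins, 0 passed, with Adam10 at -0.19 and Mmp9 at -0.14 (limma adjusted p = 0.296 and 0.417). Another 30 genes belong to other synapse-organizing families, with 5 that rose, 4 that fell and 21 that did not pass. Taken with the 3 alpha-catenin genes, 27.3% were called, beside 4.15% of all genes and 7.32% of the genes brighter than the median. These calls included Il1rap, which rose by 0.45, and Il1rapl1, which fell by 0.34 on the log2 scale, both postsynaptic partners of the presynaptic phosphatase encoded by Ptprd, which fell by 0.40 (limma adjusted p = 0.0247, 0.0168 and 0.0265). Il1rapl1 and Ptprd were picked from the list after their values were seen. Ptprf and Ptprs, the other phosphatase genes of the list, did not pass (limma adjusted p = 0.219 and 0.791). The synaptic adhesion gene Cadm1 rose by 0.42, and Flrt3 and Flrt2, whose proteins bind latrophilins, rose by 1.23 and 0.99. The remaining calls were Cadm3, which rose by 0.41, and Slitrk2 and Lrfn5, which fell by 0.35 and 0.27 (limma adjusted p = 0.0103, 0.0254 and 0.0294). How these calls of Cadm3, Slitrk2 and Lrfn5 fare when an array is left out is not given here. Il1rap was not called without control 3, control 4, mutant 1, mutant 2 or mutant 3 (adjusted p up to 0.0766), Cadm1 without control 3, mutant 2, mutant 3 or mutant 4 (up to 0.0921), Il1rapl1 without control 2 or mutant 3 (up to 0.0596) and Ptprd without control 2, control 3, control 4, mutant 2, mutant 3 or mutant 4 (up to 0.0921). With the Xist level as a covariate the calls of Ptprd and Cadm1 were lost (adjusted p = 0.0613 and 0.0593), as were those of Cadm1 with median centring (0.0502) and Il1rap with quantile normalization (0.0531).

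**Figure D5:**
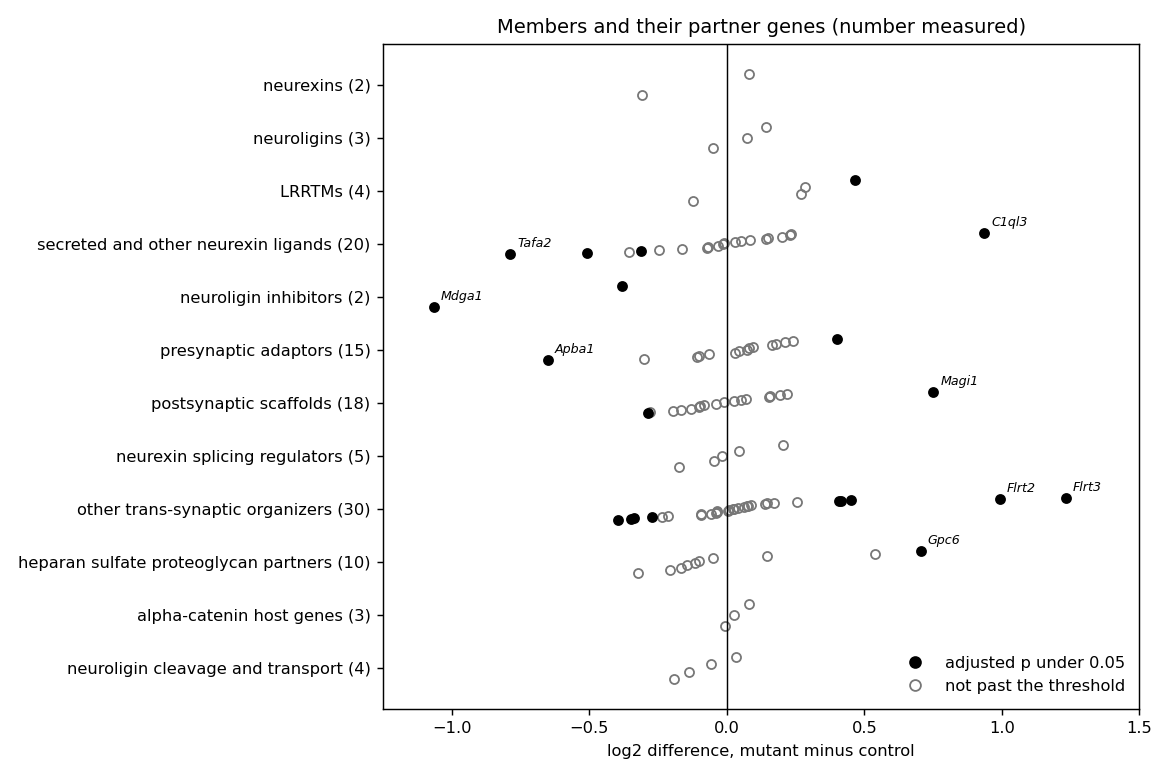
Log2 difference, mutant minus control (horizontal axis), of each measured gene in 12 lists (rows, with the number measured); filled points passed an adjusted p of 0.05 and open points did not. The neuroligin inhibitors lie to the left and Lrrtm1 is the filled point of the 3 member families, while most other genes cluster near 0.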

How the data were processed

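The authors deposited log2 expression values of GeneChip Mouse Gene 1.0 ST arrays, 1 array per pup; per the labels, BRB-ArrayTools was used. How background, normalization and probe summaries were handled, and the log base, is not given in the sources used here. Values ran from 2.03 to 13.8 with array medians of 4.83 to 4.91 and were taken as log2; another base would alter the folds but not the tests. The labels say no more of the 4 pups of a group than that they are separate samples. Xist read 8.89 on mutant 3, 9.00 on control 1 and 9.53 on control 3. On the remaining arrays it read between 3.54 and 3.81, so its level was not balanced between the groups.

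Of 35556 probe sets, those with 1 symbol in the platform annotation were kept (21789, of which 21698 matched an Entrez identifier of the GRCm38.p6 gene table, used for names and neighbours). The brightest probe set was taken for each of 999 genes with several, with no filter on dim genes. Probe set positions are left out because the platform annotation states no build; promoter windows and containing genes are those of GRCm38.p6.

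Mutant and control were compared with limma 3.58.1 (R 4.3.3): a linear model on genotype, moderated variances (6.91 prior degrees of freedom), two-sided tests and Benjamini-Hochberg adjustment over all 19938 genes. Rose and fell are used of genes past an adjusted p of 0.05. The number of arrays limits the precision (median SE of a log2 difference 0.08). The procedure was tested on simulated data. Exact permutation tests run over the 70 ways to choose 4 of 8 arrays.

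The members and lists were chosen with earlier results of these data known. The text names all members, up to 4 called genes of each list by size (for lists of the pathway, the 2 with the smallest p where none was called), and the 2 profiles nearest to a called member. Dlg4, Gphn, Ctnna3, Il1rapl1, Ptprd, Ptprf, Ptprs, Cadm3, Slitrk2, Lrfn5, Calb2 and Dlx6 were named after their values were seen. So were the uncalled markers of excitatory neurons. Genes absent from the annotation used were not analysed here. Alternatives covered scaling, dim genes, probe sets, array weights, variances, the replicate number as a block, Xist as a covariate and the omission of each array.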

Additional observations from a re-analysis of the deposited data

Results flagged for a closer look

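In 2 of 18 groups of 4 arrays, 1 array stood apart by a gap that filled most of the range of its group (Dixon's criterion at 95%), and chance gives such a gap in about 1 of 20 groups. Nrxn3 read 8.19 on control 1, against 8.49 to 8.53 on the other controls, a gap of 0.889 of the range. Lrrtm3 read 7.28 on mutant 2, against 7.56 to 7.59 on the other mutants, a gap of 0.897 of the range. The low reading of Lrrtm3 on control 1 (6.48) did not meet the limit because control 2 was low as well.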

How the results depend on the processing

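The calls of Bcl11a and Bcl6 and the directions of Nrxn2, Nrxn3, Nlgn3 and all 4 LRRTM genes held under every alternative run. Lrrtm1 lost its call with variances without moderation (log2 difference 0.47, adjusted p = 0.104). That setting also cut the calls over all genes to 123 higher and 126 lower, from 470 and 357. It left 2 higher and 3 lower of the 107 listed genes, and cut the marker genes that fell to 3, from 8. It ended the calls of 18 of 26 called list genes named, a count that leaves out Cadm3, Slitrk2 and Lrfn5. Nrxn3 passed with quantile normalization (-0.32), median centring (-0.35), array weights (-0.35), intensity trend and robust variances (-0.31), without the dimmest 50% of genes (-0.31) and with the replicate block (-0.31, adjusted p = 0.0444). It did not pass with variances without moderation (adjusted p = 0.239) or with the Xist level as a covariate (0.0860). Lrrtm2 passed with the replicate block (0.28, adjusted p = 0.0444). The block called 987 genes, against 827; the replicate numbers are not shown to pair the arrays, since the deviations of same-numbered arrays correlated at 0.06 to 0.30 and mutant 2 correlated best with control 4. Median centring gave 386 higher and 459 lower (45.7% higher, against 56.8%) and 13 marker genes that fell.

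Over the omission of each array, log2 differences ranged from 0.40 to 0.52 for Lrrtm1, 0.22 to 0.36 for Lrrtm2, 0.02 to 0.40 for Lrrtm3, -0.15 to -0.10 for Lrrtm4, -0.39 to -0.28 for Nrxn3, 0.01 to 0.13 for Nrxn2 and 0.06 to 0.21 for Nlgn3. They ran from -0.0068 (without mutant 1) to 0.13 for Nlgn1 and from -0.10 to 0.00020 (without control 4) for Nlgn2. Calls ranged from 7 to 9 higher and 4 to 12 lower for the 107 listed genes, and from 1 to 2 higher and 5 to 12 lower for marker genes. Ctnna1 changed sign with quantile normalization (-0.0050), median centring (-0.0087) and without mutant 3, with a range over the omissions of -0.020 to 0.065, and Ctnna3 did so without mutant 2, mutant 4 or control 4, with a range of -0.041 to 0.028. The exact test of pairs cannot pass with 7 arrays, where the smallest p is 0.0571. The cause of each change was not tested, other than that unmoderated variances rest on 8 arrays alone.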
